A study of Mus musculus with 12 samples.

Results

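Foxp1, Zfp608, Tbl1xr1 and Elmo1 were the 4 protein-coding genes with the most chromatin accessibility peaks assigned to them in mouse blood cells. They were chosen by that count alone, from 16270 protein-coding genes with at least 1 peak. Together they held 255 of the 84243 peaks of the master peak-list, or 0.303%. Foxp1 had 89 peaks, Zfp608 had 58, Tbl1xr1 had 55 and Elmo1 had 53. Just below the rule stood Pik3r1 with 50 peaks, Adgrl2 with 49, Trps1 with 48, Sgms1 with 46, and Btg1 and Med13l with 44 each. Because the counts chose the genes, they are given as a description and carry no test.

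Accessibility was measured by ATAC-seq, in which a transposase inserts sequencing adapters into DNA that is not wrapped tightly in chromatin, so that open regulatory sequence appears as a peak of fragments. The study sorted hematopoietic stem cells (HSC) and 5 cell types with a single fate, namely megakaryocyte progenitors (MkP), erythrocyte progenitors (EP), granulocytes and macrophages (GM), B cells and T cells. Each had 2 replicates, making 12 samples in all, from untreated wild-type C57BL/6 mice aged 8 to 12 weeks. T cells came from thymus and the other cell types from bone marrow. The list analysed here pools the 6 cell types: it gives the position and annotation of each peak, but no height, read count or cell type. The cell types in which a given peak of these genes was open, the depth of each library and the spread between replicates are therefore unknown here, and the labelled cell types could not be checked against their markers. Intervals below are 95% Wilson intervals that cover counting error only, and peaks of 1 gene are not replicates.

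The genes do different things. Foxp1 encodes a forkhead transcription factor that is needed for early B-cell development and keeps naive T cells quiescent. Tbl1xr1 encodes a WD-repeat subunit of the NCoR corepressor complex, through which nuclear receptors and other factors silence genes by histone deacetylation. Elmo1 encodes the partner of DOCK proteins, which together activate the small GTPase Rac in cell migration and in the engulfment of dying cells. Zfp608 encodes a zinc finger protein, the paralog of Zfp609. Distal open regions within introns or in the gene-poor sequence around such genes are commonly enhancers, and a gene can have several alternative promoters that are open separately.

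The accessible sequence itself is shown first for promoters and then for distal peaks, and no sequence of Zfp608 is shown. All coordinates are of mouse build GRCm38 (mm10), counted from 1, and transcripts are those curated by RefSeq. A promoter peak is one centred within 500 bp of a transcription start site (TSS), and the bases printed are the 200 directly upstream of 6 starts of Foxp1, Tbl1xr1 and Elmo1, each wholly within a promoter peak, read 5′ to 3′ on the strand of the gene. Capitals mark exact matches on either strand to a set of short consensus motifs of blood cell transcription factors, namely GATA (matched as AGATAA), ETS (AGGAAA, also with G as its last base), PU.1 (GAGGAAGT, which contains an ETS match), RUNX (AACCACA), CEBP (TTGCNNAA), the CAGCTG E-box, the closely similar CAGGTG E-box, TCF (CTTTGAT), forkhead (TGTTTAC), the AP-1/NF-E2 core (TGAGTCA) and CTCF. A match is a description of the letters and not evidence of a bound factor. The first 4 are the curated starts of Foxp1 (chr6:99028299-99028498, chr6:99266516-99266715, chr6:99435346-99435545 and chr6:99520994-99521193, all on the minus strand). They are followed by the only start of Tbl1xr1 (chr3:22076452-22076651, plus strand) and the outermost start of Elmo1 (chr13:20090307-20090506, plus strand).
Foxp1 NM_001197322: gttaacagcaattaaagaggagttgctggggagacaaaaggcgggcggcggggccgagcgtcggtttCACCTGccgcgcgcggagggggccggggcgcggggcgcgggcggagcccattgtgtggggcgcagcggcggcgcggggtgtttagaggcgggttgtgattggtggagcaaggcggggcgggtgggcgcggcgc
Foxp1 NM_001197321: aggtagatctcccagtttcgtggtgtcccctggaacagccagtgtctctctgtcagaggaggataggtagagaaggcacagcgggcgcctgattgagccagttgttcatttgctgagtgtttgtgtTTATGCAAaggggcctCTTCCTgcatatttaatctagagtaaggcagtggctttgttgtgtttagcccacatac
Foxp1 NM_053202: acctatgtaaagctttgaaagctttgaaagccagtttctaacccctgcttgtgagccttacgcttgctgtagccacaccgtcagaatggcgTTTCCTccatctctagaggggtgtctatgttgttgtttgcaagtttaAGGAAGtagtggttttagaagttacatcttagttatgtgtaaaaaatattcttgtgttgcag
Foxp1 NM_001347345: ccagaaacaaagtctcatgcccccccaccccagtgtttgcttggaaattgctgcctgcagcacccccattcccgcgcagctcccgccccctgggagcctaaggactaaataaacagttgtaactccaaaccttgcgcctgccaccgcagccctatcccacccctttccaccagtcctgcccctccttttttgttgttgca
Tbl1xr1 NM_030732: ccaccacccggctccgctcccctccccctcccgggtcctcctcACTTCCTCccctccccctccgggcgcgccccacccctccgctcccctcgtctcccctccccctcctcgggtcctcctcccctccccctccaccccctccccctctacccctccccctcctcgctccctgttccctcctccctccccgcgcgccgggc
Elmo1 NM_080288: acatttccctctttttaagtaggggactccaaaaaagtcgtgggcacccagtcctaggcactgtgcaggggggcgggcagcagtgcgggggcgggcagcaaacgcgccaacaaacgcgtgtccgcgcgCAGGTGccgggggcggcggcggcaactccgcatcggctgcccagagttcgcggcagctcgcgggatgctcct

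The 6 sequences differed widely in base composition. In the 200 bases upstream of its start, GC content was 78.0% at Tbl1xr1, 72.5% at Foxp1 NM_001197322 and 67.0% at Elmo1 NM_080288. At the other Foxp1 starts it was 57.5% at NM_001347345, 49.5% at NM_001197321 and 41.0% at NM_053202. The windows at the Foxp1 starts thus spanned nearly the whole range seen among the 6, from the lowest of them to the second highest. The lowest, at NM_053202, is the last 200 bases of intron 1 of NM_001347345, and whether it is a separate promoter was not tested. The Tbl1xr1 window held a PU.1 match, which 2.06% of 32851 windows of the same length and position at RefSeq starts held. The Elmo1 and Foxp1 NM_001197322 windows each held a CAGGTG E-box, found in 13.9% of those windows. Foxp1 NM_001197321 held a CEBP match (7.47% of windows) and an ETS match (39.6%), and Foxp1 NM_053202 held ETS matches. The Foxp1 NM_001347345 window held none of the motifs, as did 35.5% of all windows.

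Distal peaks are represented by the central 300 bases of 1 non-promoter peak each of Foxp1, Tbl1xr1 and Elmo1. These were picked after their values were seen, as the peak of that gene whose centre matched the most motif families, so their motif content is a consequence of the choice. The Foxp1 peak (chr6:99126761-99127060) lies in intron 5 of the gene and overlaps an annotated long terminal repeat of the ERVL-MaLR family. The Tbl1xr1 peak (chr3:21268423-21268722) lies 808.1 kb upstream of the start, next to the widest gap between peaks of that gene, and the Elmo1 peak (chr13:20372393-20372692) lies in intron 14, at the edge of the widest gap of Elmo1. By nearest curated start, the Foxp1 peak was closer to the microRNA gene Gm51278 and the Tbl1xr1 peak to the long non-coding RNA gene 7530428D23Rik. All sequences are read on the plus strand, with capitals as above.
Foxp1 intron 5: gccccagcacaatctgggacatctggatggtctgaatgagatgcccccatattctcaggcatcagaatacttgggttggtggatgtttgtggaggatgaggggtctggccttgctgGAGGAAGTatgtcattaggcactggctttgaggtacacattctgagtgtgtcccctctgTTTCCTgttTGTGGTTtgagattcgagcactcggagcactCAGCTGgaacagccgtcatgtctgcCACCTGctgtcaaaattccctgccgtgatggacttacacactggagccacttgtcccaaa
Tbl1xr1 upstream: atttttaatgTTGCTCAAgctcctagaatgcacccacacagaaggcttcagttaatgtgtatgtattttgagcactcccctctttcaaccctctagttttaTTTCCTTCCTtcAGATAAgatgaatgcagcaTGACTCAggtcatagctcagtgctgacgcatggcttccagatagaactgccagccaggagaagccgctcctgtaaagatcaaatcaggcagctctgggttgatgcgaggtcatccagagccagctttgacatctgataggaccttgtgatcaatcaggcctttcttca
Elmo1 intron 14: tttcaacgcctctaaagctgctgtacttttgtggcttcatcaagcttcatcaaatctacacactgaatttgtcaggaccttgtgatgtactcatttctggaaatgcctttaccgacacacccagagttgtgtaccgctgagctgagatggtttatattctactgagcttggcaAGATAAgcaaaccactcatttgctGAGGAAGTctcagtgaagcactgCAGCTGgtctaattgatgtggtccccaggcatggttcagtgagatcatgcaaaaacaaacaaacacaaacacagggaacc

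The Foxp1 sequence combined matches to 5 families (ETS, PU.1, RUNX and both E-boxes), and 1.4% of the 71072 non-promoter peaks of the list had 5 or more in their central 300 bases. The Tbl1xr1 sequence matched 4 families (GATA, ETS, CEBP and the AP-1/NF-E2 core), as did the Elmo1 sequence (GATA, ETS, PU.1 and the CAGCTG E-box). A count of 4 or more was found in 8.12% of non-promoter peaks.

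The number of peaks per gene fell off steeply across the list. The median protein-coding gene with a peak had 3, the quartiles were 1 and 5, and the 99th percentile was 24. A single peak was assigned to 4076 genes, 20 or more to 321 genes and 40 or more to 14. Foxp1 stood 31 peaks above the next gene, whereas the step from Elmo1 to Pik3r1 was 3 peaks. One gene that is not protein-coding, the RNA gene Rprl1 on chromosome 6, had 61 peaks, more than every gene of the group but Foxp1. Its peaks lay between 68474260 and 70059522, none was at its promoter, and their median distance from its TSS was 465.0 kb.

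**Figure D1:**
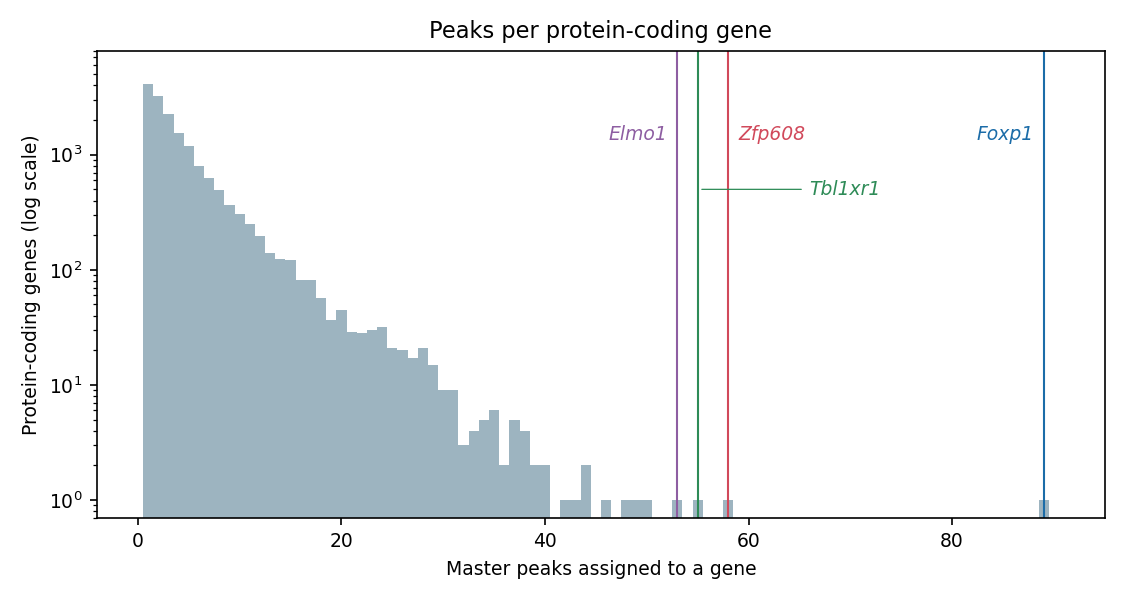
Number of master peaks assigned to each of the 16270 protein-coding genes with at least 1 peak (x axis) against the number of genes (y axis, log scale). Coloured lines mark Elmo1 at 53, Tbl1xr1 at 55, Zfp608 at 58 and Foxp1 at 89, with Foxp1 well to the right of all others.

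The peaks of the 4 genes were laid out in contrasting ways. Those of Foxp1 and Elmo1 lay inside the gene, in introns, while those of Zfp608 and Tbl1xr1 lay mostly in the long sequence upstream. Of the 89 Foxp1 peaks, 77 were in its own introns (86.5%, interval 77.9 to 92.1), 4 at promoters, 3 in the upstream flank and 5 in the downstream flank. Of the 53 Elmo1 peaks, 49 were in its own introns (92.5%, interval 82.1 to 97.0), 1 at a promoter, 3 in the upstream flank and none in the downstream flank. Of the 58 Zfp608 peaks, 15 were in its own introns (25.9%, interval 16.3 to 38.4), 1 at a promoter, 31 in the upstream flank, 7 in the downstream flank and 4 elsewhere within Gm4221, a long non-coding RNA gene that starts inside Zfp608 and runs away from it on the other strand. Its promoter peak and 1 of the intronic peaks also lay within Gm4221, making 6 in all. Of the 55 Tbl1xr1 peaks, 12 were in its own introns (21.8%, interval 12.9 to 34.4), 1 at the promoter, 41 in the upstream flank (74.5%, interval 61.7 to 84.2), 1 within the long non-coding RNA gene 7530428D23Rik and none downstream. The intervals of the intronic shares of Foxp1 and Elmo1 did not overlap those of Zfp608 and Tbl1xr1, but they cover counting error only and are no test between genes. The gene bodies also differ in length, at 595.7 kb for Foxp1 and 517.8 kb for Elmo1 against 104.5 kb for Zfp608 and 139.9 kb for Tbl1xr1. The part of length in the contrast was not tested. None of the 255 peaks was centred in an exon of the 4 genes, and a count of 0, taken to allow at most 3 counts of the total here and below, allows a share of up to 1.18%.

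**Figure D2:**
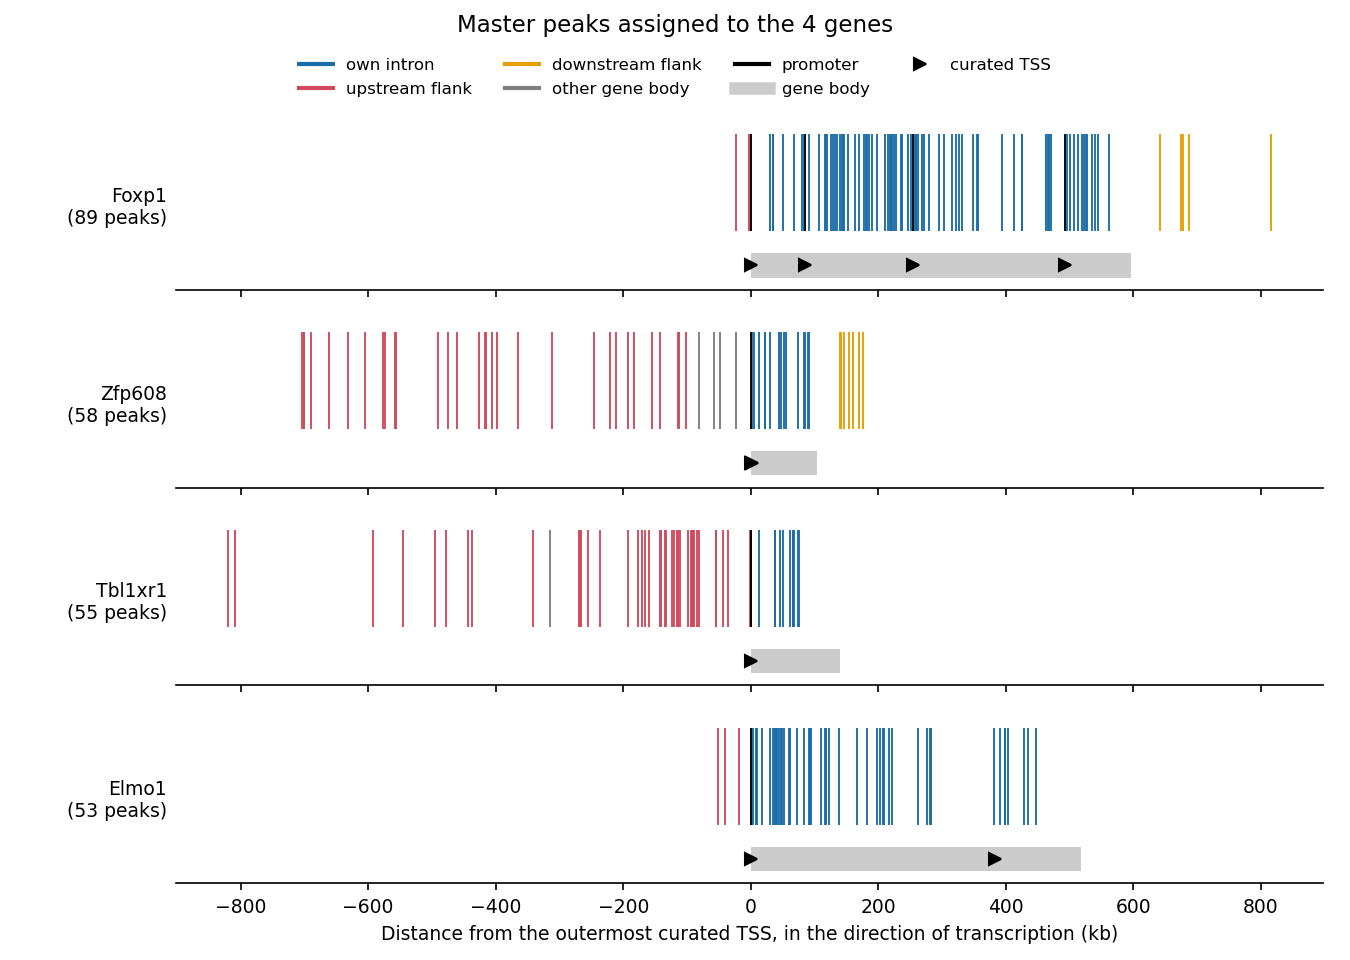
Position of each peak (vertical lines, coloured by class) along the 4 genes, as distance in kb from the outermost curated TSS in the direction of transcription, so that upstream is to the left of 0. Grey bars are gene bodies and triangles are curated TSSs; 80 of the 89 Foxp1 peaks and 49 of the 53 Elmo1 peaks lie inside the gene body, whereas most of the 58 Zfp608 and 55 Tbl1xr1 peaks lie to the left of the gene.

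Set against the whole list, promoters made up a small share of these peaks. Taken as one set, 2.75% of the 255 peaks were at a promoter (interval 1.34 to 5.56) against 15.6% of the list. Intronic peaks made up 60.0% (interval 53.9 to 65.8) against 40.5%, and intergenic peaks 37.3% (interval 31.6 to 43.3) against 37.6%. All other annotations, such as exons, transcript ends and start-site annotations of peaks centred beyond 500 bp, made up none of them and 6.22% of the list. These shares follow in part from the choice of genes, since each gene has few starts however many peaks it has: the next 6 genes had 3.20% of 281 peaks at promoters, 39.9% in introns and 54.8% in intergenic sequence.

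Distances to the TSS differed accordingly. The median distance of a peak from its nearest annotated start was 34.9 kb for Foxp1, 53.0 kb for Elmo1, 114.8 kb for Tbl1xr1 and 156.2 kb for Zfp608, against 16.0 kb over the whole list. Peaks farther than 100 kb from a start numbered 7 of 89 for Foxp1, 18 of 53 for Elmo1, 30 of 55 for Tbl1xr1 and 38 of 58 for Zfp608. For the 4 genes together this was 36.5% of peaks, against 10.9% of the list. Within 10 kb of a start lay 17 peaks of Foxp1 and 8 of Elmo1, but 3 each of Tbl1xr1 and Zfp608. The farthest peak was 322.9 kb from a start for Foxp1, 184.3 kb for Elmo1, 703.2 kb for Zfp608 and 820.3 kb for Tbl1xr1. These distances are bounded by the assignment, which gives a peak to the gene with the nearest annotated start.

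Foxp1 had a peak within 500 bp of each of its 4 curated starts. The gene lies on the minus strand at chr6:98925342-99520993, covers 595.7 kb and has 19 introns in its longest transcript. Its promoter peaks were centred 106 bp upstream of NM_001197322, 52 bp upstream of NM_001197321, 32 bp upstream of NM_053202 and 241 bp upstream of NM_001347345. The last of these is the outermost start, and the other starts lie within the gene. The start of NM_053202 directly adjoins intron 1 of the longest transcript (99435346 to 99520600), so it is also an exon edge of that transcript. Whether its peak marks a separate promoter was not tested. The inner start NM_001197321 was the nearest start of 35 peaks, NM_001197322 of 26, NM_053202 of 21 and the outermost NM_001347345 of 7. Most Foxp1 peaks were thus assigned through starts inside the gene. Over the 499 bases of each peak, GC content was 74.2% at NM_001197322, 65.5% at NM_001347345, 49.7% at NM_001197321 and 45.1% at NM_053202.

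The other 3 genes had 1 promoter peak each. Tbl1xr1, at chr3:22076652-22216594 on the plus strand, covers 139.9 kb and has a single curated start, whose peak was centred 213 bp upstream with a GC content of 75.6%. Elmo1, at chr13:20090507-20608353 on the plus strand, covers 517.8 kb and has 2 curated starts. Its outermost start NM_080288 had a peak 52 bp upstream, while the nearest peak to the inner start NM_198093 was 1052 bp upstream of it. Zfp608, at chr18:54888045-54992591 on the minus strand, covers 104.5 kb. The peak at its outer start NM_001360787 was centred 63 bp upstream, and the nearest peak to its inner start NM_175751 was 1017 bp away. In all, 7 of the 9 curated starts of the group had a peak within 500 bp. By comparison, the median body length of protein-coding genes was 16.7 kb (n = 21000), so all 4 genes were long.

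Most intronic peaks were in the longest introns. The joint share of peaks in these was near their share of length, but single long introns departed widely from it. The 3 longest introns held 51.3% of the peaks in introns of Foxp1 and 52.9% of their length, 85.7% and 84.4% in Tbl1xr1, all of them and 94.6% in Zfp608, and 63.3% and 55.8% in Elmo1. In Foxp1, intron 2 (126.8 kb) held 24 peaks, intron 3 (47.9 kb) held 14, intron 4 (97.3 kb) held 13 and intron 1 (85.3 kb) held 8. Per length, intron 3 was the most densely occupied of these, at 29.2 peaks per 100 kb, against 18.9 in intron 2, 13.4 in intron 4 and 9.38 in intron 1. Intron 5, at 86.8 kb about as long as intron 1, held 4 peaks, or 4.61 per 100 kb. Toward the 3′ end, intron 10 (25.0 kb) held 6 peaks, and introns 13 to 19, none longer than 8.59 kb, held none. In total 11 of the 19 introns held a peak.

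Elmo1 had 23 of its 49 intronic peaks in intron 1, which is 94.6 kb long, at 24.3 peaks per 100 kb. The longest intron, intron 16 (114.8 kb), held 8 peaks, or 6.97 per 100 kb, and intron 13 (51.9 kb) held 5. Intron 15, which is 76.3 kb long, held no peak, and introns 17 to 21 held none either. The short intron 3 (964 bp) held 2 peaks. In Zfp608, 14 of the 15 intronic peaks were in intron 2, which at 87.3 kb makes up most of the gene, and 1 was in intron 1. In Tbl1xr1, 10 of 12 were in intron 1 (72.0 kb) and 2 in intron 2 (30.2 kb). A further 2 peaks inside the Tbl1xr1 body, 1 each in introns 5 and 10, were assigned by the list to Rprl2, a small RNA gene downstream.

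**Figure D3:**
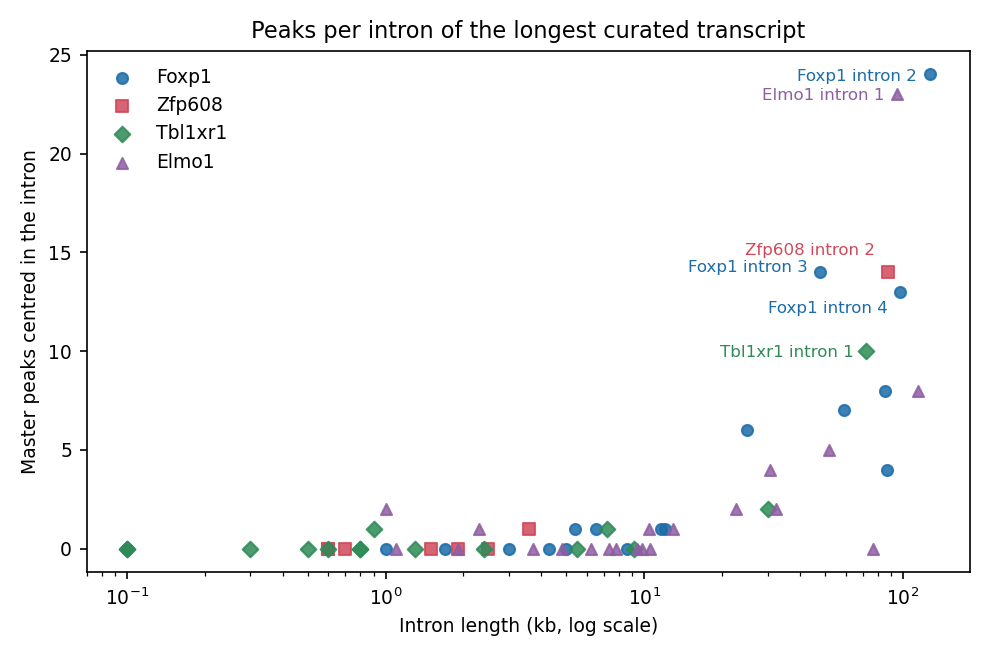
Length of each intron of the longest curated transcript (x axis, kb, log scale) against the number of peaks centred in it (y axis), 1 symbol per intron. Introns with 10 or more peaks are labelled; Foxp1 intron 2 (24 peaks) and Elmo1 intron 1 (23 peaks) hold the most, and Elmo1 intron 15, at 76.3 kb, holds none.

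Outside the genes, the flanks were unequal in both length and occupancy. Here every peak centred between a gene and the next protein-coding gene was counted, including promoter peaks centred upstream of the outermost start and peaks within non-coding genes, so the upstream counts exceed those by class above. Density over the whole genome was 3.18 peaks per 100 kb. The 4 gene bodies held 9.46 (Elmo1), 10.0 (Tbl1xr1), 13.4 (Foxp1) and 14.3 (Zfp608) peaks per 100 kb, counting every peak centred there. Upstream of Tbl1xr1, 1709.5 kb separate it from the nearest protein-coding gene, Agtr1b, and held 56 peaks (3.28 per 100 kb), of which 43 were assigned to Tbl1xr1, 1 of them its promoter peak. The 275.9 kb of this flank closest to Tbl1xr1, up to 7530428D23Rik, held 33 peaks, or 12.0 per 100 kb. Downstream of Tbl1xr1, the 1581.5 kb to the next protein-coding gene Naaladl2 held 2 peaks, or 0.127 per 100 kb, and neither was assigned to Tbl1xr1. Over its whole length the upstream flank was thus close to the genome density, and its part nearest the gene was densely occupied. The downstream flank was nearly empty.

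Zfp608 also had long flanks on both sides, but its upstream peaks were spread more evenly than those of Tbl1xr1. The upstream flank of 1407.7 kb to Gramd3 held 46 peaks (3.27 per 100 kb), 36 of them assigned to Zfp608 and 10 to Gramd3, a density close to that of the whole genome. Counted in 100-kb steps away from its outermost start, Zfp608 had 5, 7, 3, 3, 7, 4, 4 and 3 peaks, ending just beyond 700 kb. The assignment sets this end, since peaks farther out were closer to Gramd3 and were given to it. In the same steps, Tbl1xr1 had 13, 15, 5, 2, 4, 2, 0, 0 and 2. The downstream flank of Zfp608, 932.4 kb to Csnk1g3, held 25 peaks (2.68 per 100 kb), 7 of which were assigned to Zfp608 and lay together in 38.0 kb. The flanks of Foxp1 and Elmo1 were shorter and contributed little. Foxp1 had 104.1 kb to Eif4e3 upstream with 8 peaks, 4 of them its own, and 582.6 kb to Gm765 downstream with 9 peaks, 5 of them its own. Elmo1 had 266.2 kb to Gpr141 upstream with 9 peaks, 4 of them its own, and 185.8 kb to Aoah downstream with 2 peaks, none its own.

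Neighbouring peaks of 1 gene were usually a few kb apart. The median distance between neighbouring peak centres was 4776 bp for Foxp1 (n = 88 gaps), 5207 bp for Elmo1 (n = 52), 5868 bp for Tbl1xr1 (n = 54) and 9642 bp for Zfp608 (n = 57). Over the whole list the median between neighbours assigned to the same gene was 6987 bp, and for other protein-coding genes with 20 or more peaks it was 6330 bp. Foxp1, Elmo1 and Tbl1xr1 were thus spaced more closely than this background and Zfp608 more widely, but the quartiles of all 4 genes overlapped (2700 to 8837 bp for Foxp1 and 4043 to 23455 bp for Zfp608). Gaps of at most 2 kb made up 27.8% of those of Tbl1xr1, 28.8% of Elmo1, 19.3% of Foxp1 and 12.3% of Zfp608, against 19.4% over the list. All peaks in the list are 499 bp wide and do not overlap, so that no gap can be shorter than 500 bp. The narrowest were 541 bp in Foxp1, 547 bp in Elmo1, 552 bp in Tbl1xr1 and 666 bp in Zfp608.

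The widest gaps marked stretches without a peak. In Tbl1xr1 it was 215.6 kb, between peaks 808.1 kb and 592.5 kb upstream of the start. In Foxp1 it was 128.7 kb, in the downstream flank, and in Zfp608 65.3 kb, in the upstream flank. In Elmo1 it was 99.4 kb, inside the gene, running from intron 14 across intron 15 to the peak just upstream of the inner start NM_198093.

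**Figure D4:**
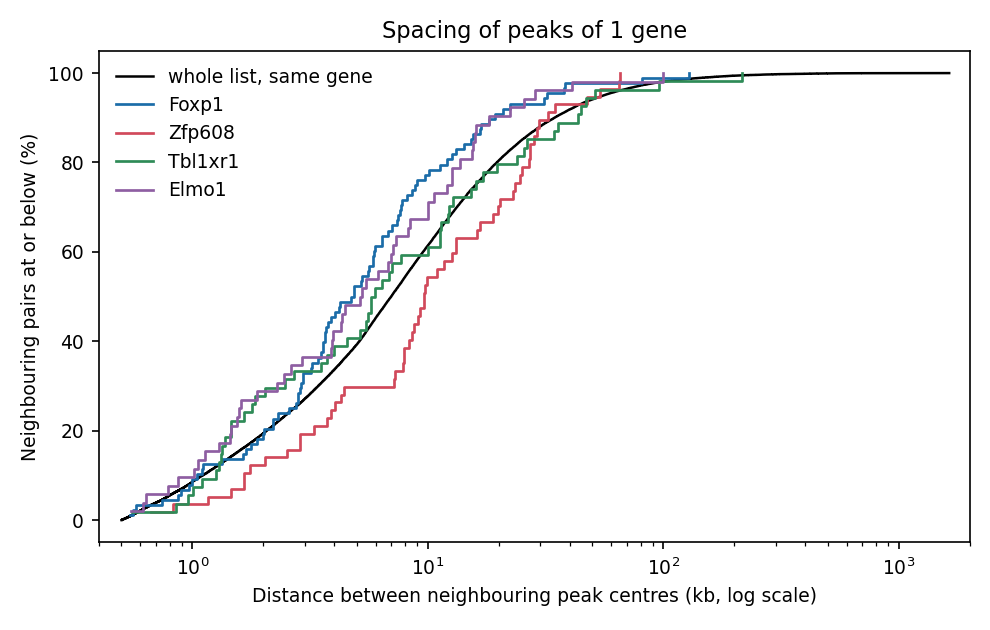
Distance between neighbouring peak centres of 1 gene (x axis, kb, log scale) against the percentage of neighbouring pairs at or below that distance (y axis), for each of the 4 genes and for all same-gene neighbours of the list (black). The Zfp608 line runs to the right of the black line over most of its course (medians 9642 and 6987 bp), and the Foxp1 line lies to its left at the median (4776 bp).

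Peaks were next joined into clusters wherever neighbouring centres were at most 12.5 kb apart. The list formed 34363 clusters, of which 17571 were single peaks, 931 had 10 or more and 294 had 15 or more, and the largest had 48. The largest Foxp1 cluster had 22 peaks in 91.5 kb (chr6:99322525-99413990), wholly within intron 2, and ranked 57 in the list by number of peaks, ties sharing a rank. A second Foxp1 cluster of 19 peaks in 68.4 kb covered parts of introns 2 to 4 with the promoter of NM_001197321 among its members and ranked 115. The next, of 12 peaks in 52.7 kb, ended at the promoter of NM_001197322. Of the 89 Foxp1 peaks, 82 lay in clusters of 3 or more.

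Tbl1xr1 and Elmo1 each had a largest cluster of 17 peaks, which ranked 160. That of Tbl1xr1 spanned 61.5 kb (chr3:21934673-21996135) and lay wholly upstream, between 141.7 and 80.8 kb from the start, with no promoter in it. Its second cluster, of 10 peaks in 39.5 kb, was in introns 1 and 2. The largest cluster of Elmo1 spanned 64.9 kb (chr13:20120599-20185480) and lay wholly in intron 1, between 30.3 and 94.7 kb downstream of the start, and a separate cluster of 7 peaks began at the promoter. Zfp608 had no cluster of comparable size. Its largest were a pair of 7 peaks each, 1 in the downstream flank and 1 running from the promoter into intron 2, and 35 of its 58 peaks lay in clusters of 3 or more. That number was 42 of 55 for Tbl1xr1 and 43 of 53 for Elmo1, and over the whole list 62.4% of peaks lay in such clusters. The size of a cluster depends on the joining distance: with 5 kb the largest had 8 (Foxp1), 4 (Zfp608), 6 (Tbl1xr1) and 10 peaks (Elmo1), and with 25 kb 59, 23, 22 and 33.

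Whether the counts reflect long sequence or dense peaks was examined by length. The territory of a gene was taken as the sequence closer to one of its curated starts than to any start of another curated gene. Foxp1 had 79 peaks in a territory of 789.2 kb (10.0 per 100 kb), Zfp608 had 57 in 894.3 kb (6.37), Tbl1xr1 had 33 in 225.3 kb (14.6) and Elmo1 had 53 in 676.2 kb (7.84). Among the 4865 protein-coding genes with a territory of at least 100 kb the median was 2.34 peaks per 100 kb and the 90th percentile 8.27. Tbl1xr1 ranked 56 by density, Foxp1 286, Elmo1 551 and Zfp608 860. The highest counts in the list were therefore not the highest densities: of the next 6 genes, Sgms1 had 19.8 peaks per 100 kb and ranked 7. Genes with a territory within 1.25-fold of that of each gene had a median of 4 peaks for Foxp1 (n = 249), 3 for Zfp608 (n = 195), 5 for Tbl1xr1 (n = 1132) and 5 for Elmo1 (n = 315). The 4 genes were chosen for high counts, so counts above those of like-sized genes follow in part from that choice and carry no test. No gene with a territory like that of Foxp1 had as many peaks, and none could, since Foxp1 led all protein-coding genes by this count. For Zfp608 and for Elmo1 there was 1 such gene, with 79 peaks, the number for Foxp1 itself, and for Tbl1xr1 there were 3.

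**Figure D5:**
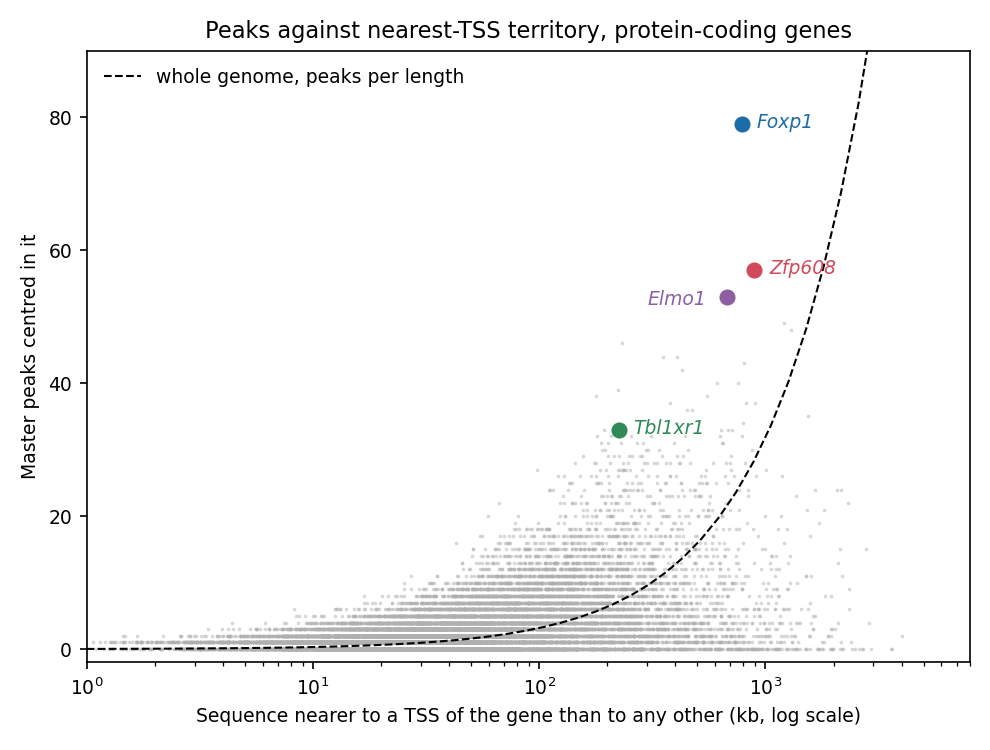
Territory of each protein-coding gene (x axis, kb, log scale) against the peaks centred in it (y axis), with 1 grey point per gene and the 4 genes in colour. The dashed line is the whole-genome density of 3.18 peaks per 100 kb. With territories set by curated starts, as drawn, all 4 genes lie above it, at 79 (Foxp1), 57 (Zfp608), 53 (Elmo1) and 33 peaks (Tbl1xr1).

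The assignment of peaks to genes moved some of these counts. The name deposited for a peak equalled the nearest curated RefSeq gene for 92.9% of the list. With curated starts, 22 of the 55 Tbl1xr1 peaks were closer to 7530428D23Rik, whose start is at position 21800771 of chromosome 3, leaving 33 and rank 25 among protein-coding genes. For Foxp1, 10 peaks were closer to Gm51278, a microRNA gene within an intron of Foxp1, and 79 were left. Zfp608 lost 1 peak to Gm4221 and Elmo1 none. Counting instead the peaks inside each gene body gave 80 for Foxp1 (rank 1) and 49 for Elmo1 (rank 4), but 15 for Zfp608 (rank 356) and 14 for Tbl1xr1 (rank 407). Foxp1 led the list by the deposited name, by the nearest curated start and by gene body, and ranked 2 when each gene was given only its RefSeq Select start (84 peaks). Under that last rule Zfp608 had 65 peaks (rank 7), Tbl1xr1 had 59 (rank 9) and Elmo1 had 45 (rank 26). Each gene but Foxp1 thus ranked below the first 20 under at least 1 of these rules.

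Sequence content beyond the rule was described for the 248 non-promoter peaks of the group. Their median GC content was 45.5%, against 47.7% for the 71072 non-promoter peaks of the list, and was 47.1% for Foxp1, 45.5% for Elmo1, 45.1% for Tbl1xr1 and 43.9% for Zfp608. Annotated repeats covered the centre of 13.7% of them and of 17.9% in the list. ETS motifs, the binding sequence of a family that includes PU.1, were matched in 87.9% (interval 83.3 to 91.4) against 83.3% in the list. GATA motifs, recognised by factors of stem cells, megakaryocytes and erythroid cells, were matched in 28.6% (interval 23.4 to 34.5) against 26.9%, and ranged from 21.2% in Foxp1 to 36.8% in Zfp608. RUNX motifs were matched in 21.0% (interval 16.4 to 26.5) against 18.0%, PU.1 in 12.9% (interval 9.29 to 17.6) against 10.2%, CEBP in 18.1% (interval 13.8 to 23.4) against 20.7%, TCF in 8.87% (interval 5.93 to 13.1) against 7.46% and the AP-1/NF-E2 core in 8.47% (interval 5.61 to 12.6) against 11.8%. The CAGCTG E-box was matched in 25.8% (interval 20.8 to 31.6) against 30.4%. The list value lay within each of these intervals, for ETS just above its lower bound.

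Over whole peaks, the motifs whose interval left out the list value were those of CTCF and of forkhead factors. CTCF, which organises chromatin loops, was matched in 5 of the 248 peaks, or 2.02% (interval 0.864 to 4.63), against 8.74% in the list. Of these, 3 were in introns of Elmo1 (introns 3, 13 and 16), 1 was 2206 bp upstream of the outermost Foxp1 start and 1 was 557.3 kb upstream of Zfp608. None of the 54 Tbl1xr1 peaks held one, which allows a share of up to 5.56%. The next 6 genes had a like share, 1.84% of 272 peaks. The forkhead motif, the kind of sequence that FOXP1 itself recognises, was matched in 12.5% (interval 8.95 to 17.2) against 7.25% in the list. It was matched in 14 of 85 Foxp1 peaks (16.5%, interval 10.1 to 25.8), 7 of 57 Zfp608 peaks, 5 of 54 Tbl1xr1 peaks and 5 of 52 Elmo1 peaks. The next 6 genes had 11.4%. In the central 200 bp of the peaks, CTCF was matched in 1.21% (interval 0.412 to 3.50) against 7.97%, but the forkhead share of 4.03% (interval 2.20 to 7.26) took in the list value of 2.90%. There, TCF at 5.65% (interval 3.39 to 9.25, list 2.89%) and CEBP at 5.65% (interval 3.39 to 9.25, list 9.60%) left it out instead, so that of these motifs CTCF alone stood apart from the list in both windows. The group had both a lower median GC content and a higher share of the AT-rich forkhead match than the list. Foxp1 had the highest median GC content of the 4 (47.1%) and also the highest forkhead share (16.5%). The intervals of the forkhead share overlapped among all 4 genes, so the genes cannot be ordered by it. The part of GC content in the difference between group and list was not tested. Over whole peaks, the CAGGTG E-box was matched in 35.1% of the group (interval 29.4 to 41.2), which took in the list value of 32.9%. Its share ranged from 21.2% of Elmo1 peaks (interval 12.2 to 34.0) to 45.9% of Foxp1 peaks (interval 35.7 to 56.4). The Elmo1 interval took in the list value and the Foxp1 interval left it out.

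The paralogs of the 4 genes, and the partners given here, had few peaks. Foxp2, another forkhead factor gene of the same subfamily and at 540.6 kb nearly as long as Foxp1, had 3 peaks in a territory of 624.8 kb. Foxp4 had 9, and Foxp3, the regulatory T-cell factor, had none. Zfp609 had 3, Tbl1x had 9, Elmo2 had 5 and Elmo3 had 1. The median of these 7 paralogs was 3 peaks, that of all protein-coding genes with a peak. In the NCoR complex, which holds Tbl1xr1, the corepressor Ncor1 had 2 peaks, the deacetylase Hdac3 had 1 and Gps2 had 2. In the pathway of Elmo1, the DOCK exchange factors Dock1, Dock2 and Dock5 had 9, 8 and 5 peaks. The GTPases Rac1, Rac2 and Rhog had 5, 4 and 5, and the adaptor Crk had 3. A promoter peak was present in 6 of the 7 paralogs, in Ncor1, Hdac3 and Gps2, and in all 10 genes of the Elmo1 pathway list, Elmo1 and its paralogs included. None of the paralogs and partners named here had more than 9 peaks.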

How the data were processed

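ATAC-seq reads of 12 samples were processed by the authors, who called peaks in each cell type, pooled the lists, filtered them to non-overlapping peaks of one width and annotated them against mm10 with HOMER 4.10.2 (submitters' processing notes). The deposited table holds positions, distances and annotations in bp and a score column that is 0 in every row; the score was not used, and no column holds values of a sample, so depth per sample is unknown. The 4 genes and all gene and motif lists were chosen with earlier results of these data known. Peak centres were compared with curated RefSeq transcripts and sequence of GRCm38.p6, whose chromosome lengths hold every peak, in Python 3.11.15 with numpy 2.4.6 and pandas 2.3.3; motifs were exact matches on both strands. Named were the 4 genes, the next 6 by count, non-coding genes with as many peaks, neighbouring and overlapping genes and the fixed lists, of which 1 gene is not reported here. Nearest-gene assignment, clustering and motif search were tested on simulated data. Alternatives were other assignments, promoter widths, joining distances, start sets and motif windows. No group of samples could be compared.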

Additional observations from a re-analysis of the deposited data

How the results depend on the processing

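Of the alternatives for the principal values, 42 stayed within 1.5 times the value above and 18 did not. With peaks counted by gene body, Zfp608 had 15 and Tbl1xr1 had 14, and by nearest curated start Tbl1xr1 had 33. With promoters drawn at 100 bp, Foxp1 had 2 promoter peaks and Tbl1xr1 had 0, and at 1000 bp Tbl1xr1 and Elmo1 had 2 each. The largest cluster had 8 peaks for Foxp1, 4 for Zfp608, 6 for Tbl1xr1 and 10 for Elmo1 at a joining distance of 5 kb, and 59 for Foxp1, 23 for Zfp608 and 33 for Elmo1 at 25 kb. Density was 11.1 peaks per 100 kb for Zfp608 when all RefSeq transcripts set the territory, and 2.67 for Tbl1xr1 when protein-coding starts alone did, since the starts of 7530428D23Rik and Rprl2 then no longer bound its territory. In the central 200 bp, motif families per peak averaged 1.56 in the 4 genes and 1.56 in the list, against 2.61 and 2.58 over whole peaks. Median spacing and intragenic counts kept within 1.5 times under the alternatives run. No paired analysis was possible because the list holds no values per sample, and for the same reason no replicate could be left out. A stricter peak threshold was not run because the score is 0 throughout.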
